A study of Homo sapiens with 9 samples.

Results

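The lysosome genes described here are 50 genes for lysosomal proteases, hydrolases and membrane proteins, taken by gene symbol from a table of 58735 annotated genes. Each of the 50 symbols had exactly 1 row. By role they comprise 14 cathepsins and other proteases, 14 glycosidases and sulfatases, 10 lipid hydrolases, activators, lipid carriers and phosphatases, 7 membrane proteins, 3 proton pump subunits and 2 transcription factors. They were measured by poly(A)-selected RNA sequencing in MDA-MB-231, an established human cell line derived from a triple-negative breast cancer, in 9 libraries that form 3 groups of 3. All cells were of wild-type genotype (WT) and were grown in the same serum-containing medium. The No CM group received plain medium, the Cont CM group received conditioned medium (CM) of non-senescent cells of the line, and the TIS CM group received that of cells driven into senescence by nocodazole, an inhibitor of microtubule assembly (100 ng/ml for 72 h). The study asked what the secretome of such therapy-induced senescent (TIS) cells does to proliferating cells of the same line. The exposure is given as 72 h in the sample labels and as 48 h in the design text. A single cell line was used, and nothing in the labels says that the replicates came from separate cultures. The p-values set differences between groups against the spread of these libraries within groups, and that spread may be no more than technical.

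Lysosomes are acidic organelles in which proteins, glycans and lipids delivered by endocytosis and autophagy are broken down. The V-ATPase pumps protons into the lumen, hydrolases that were tagged with mannose 6-phosphate in the Golgi do the digestion, and membrane proteins such as LAMP1 and LAMP2 line the organelle and move its products and ions. Many lysosomal genes carry the motif CACGTG in their promoters, the core of the CLEAR element to which the transcription factors TFEB and TFE3 bind. Cathepsins are also secreted by many tumour cells, where they act on the extracellular matrix.

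The promoters of CTSD, CTSF, SMPD1 and LAMP1 are shown first, with every CACGTG in capitals. They are RefSeq sequences of build GRCh38.p14, 250 bases before to 50 bases after the annotated start, written 5′ to 3′ on the strand of the gene. CTSD (chr11:1763878-1764177, minus strand) encodes cathepsin D, the main aspartic protease of lysosomes, and was the tested member with the widest difference between groups. CTSF (chr11:66568557-66568856, minus strand) encodes the cysteine protease cathepsin F, and SMPD1 (chr11:6390224-6390523, plus strand) encodes acid sphingomyelinase. Both passed the test described below for a rise with senescent-conditioned medium relative to control-conditioned medium. Of 21 alternative analyses, 8 kept that result for CTSF and 10 kept it for SMPD1. LAMP1 (chr13:113296989-113297288, plus strand) encodes an abundant glycoprotein of the lysosomal membrane and is shown because it held more copies of the motif than any other member with an entry.
CTSD: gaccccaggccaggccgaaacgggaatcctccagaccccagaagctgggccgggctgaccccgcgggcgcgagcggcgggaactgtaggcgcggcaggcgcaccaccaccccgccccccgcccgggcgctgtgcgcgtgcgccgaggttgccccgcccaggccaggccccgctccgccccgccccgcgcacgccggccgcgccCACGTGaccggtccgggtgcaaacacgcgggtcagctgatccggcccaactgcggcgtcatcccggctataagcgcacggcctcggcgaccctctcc
CTSF: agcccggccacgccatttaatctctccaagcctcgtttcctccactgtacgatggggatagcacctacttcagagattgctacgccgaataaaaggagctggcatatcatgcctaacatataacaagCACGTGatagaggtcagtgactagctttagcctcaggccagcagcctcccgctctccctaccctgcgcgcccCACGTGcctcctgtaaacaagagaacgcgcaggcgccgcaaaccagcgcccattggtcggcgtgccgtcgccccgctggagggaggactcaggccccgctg
SMPD1: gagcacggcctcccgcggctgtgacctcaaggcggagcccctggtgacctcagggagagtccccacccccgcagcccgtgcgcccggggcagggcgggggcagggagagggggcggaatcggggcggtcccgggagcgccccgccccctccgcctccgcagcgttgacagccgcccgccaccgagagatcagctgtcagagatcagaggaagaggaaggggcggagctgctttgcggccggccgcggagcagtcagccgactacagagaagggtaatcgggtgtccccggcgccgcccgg
LAMP1: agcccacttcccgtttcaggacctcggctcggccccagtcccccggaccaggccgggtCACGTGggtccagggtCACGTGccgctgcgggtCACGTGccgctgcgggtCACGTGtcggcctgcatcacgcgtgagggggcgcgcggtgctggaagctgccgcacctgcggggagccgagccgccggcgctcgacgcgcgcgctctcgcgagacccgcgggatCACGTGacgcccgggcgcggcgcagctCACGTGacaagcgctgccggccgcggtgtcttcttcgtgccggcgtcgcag

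The CTSD window held 1 copy of CACGTG, at -47 from the start. CTSF held 2 copies, at -123 and -51, LAMP1 held 6 copies, and SMPD1 held none. Among the 37 of 50 members with an entry in the promoter table, 10 held at least 1 copy (27%), namely ATP6V0D1, CD63, CLN3, CTSA, CTSD, CTSF, GAA, LAMP1, MCOLN1 and NEU1. CACGTG reads the same on both strands and was present in 7.43% of all 27305 promoter windows of this length and in 10.3% of the 9422 windows of genes tested here. The longer motif GTCACGTG, which contains CACGTG and was searched on both strands, was found in 7 of 37 members (18.9%) in 2.53% of all windows and in 4.53% of those of tested genes. Of the 12 members that passed a test in any comparison below, 9 had an entry and 3 of these held CACGTG, against 6 of the 26 that were tested and passed none. Of those 9, GM2A, TFE3, CTSC, ATP6AP1 and IDUA held no copy and NEU1 held 1, and their windows are not shown. A match describes the letters of the window only. The members with no entry were PSAP, CTSB, LAMP2, LGMN, NAGLU, CTSS, ATP6V1H, ASAH1, HEXA, CTSO, ARSA, MANBA and CTSK.

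Each level is given in FPKM, fragments scaled to library size and to the length of all annotated exons of the gene together. That length, 15378 bases for ASAH1 and 3239 for PSAP, can exceed that of the transcript present. Ranks between genes are therefore approximate. PSAP, the precursor of the saposins that activate sphingolipid hydrolases, was the most abundant member, at a mean of 265 FPKM over the 9 libraries (range 252 to 275). It was followed by CTSZ, a carboxypeptidase of the cathepsin family, at 195 FPKM, CTSD at 167 and the tetraspanin CD63 at 113. These 4 genes were above 100 FPKM, 27 members lay between 10 and 100, 16 between 1 and 10, and 3 below 1. The classical senescence-associated beta-galactosidase gene, GLB1, lay at 21.9 FPKM (range 18.7 to 23.9).

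The proteases ran from CTSZ through CTSB (71.6 FPKM) and CTSL (57.0 FPKM), the 2 cysteine cathepsins most studied in tumour invasion, down to CTSK, the collagen-degrading cathepsin of osteoclasts, at 0.577 FPKM. Glycosidases and sulfatases lay between FUCA1, the fucosidase, at 27.6 FPKM, and MANBA, the beta-mannosidase, at 1.06 FPKM. Below PSAP, the lipid group ran from the progranulin gene GRN (92.0 FPKM) and the cholesterol carrier NPC2 (58.1 FPKM) down to ASAH1, acid ceramidase, at 3.96 FPKM and the phosphatase gene ACP5 at 0.0997 FPKM. TFE3, at 40.1 FPKM, was far above its relative TFEB at 1.59 FPKM. The plot of levels by role gives all 50 genes in each library.

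**Figure D1:**
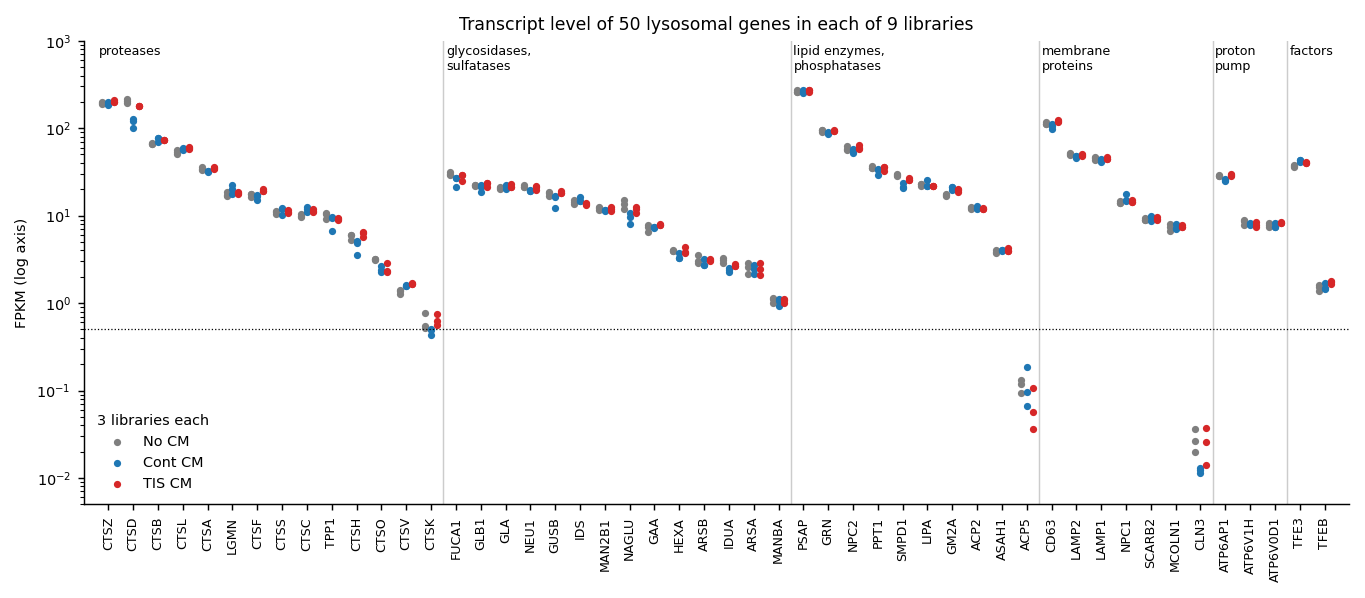
FPKM on a log axis for each of the 50 lysosomal genes, sorted by role and level, with 3 points each for No CM (grey), Cont CM (blue) and TIS CM (red); the dotted line marks the filter of 0.5 FPKM. Levels run from 265 FPKM for PSAP to 0.0219 for CLN3, and CTSD is the gene at the high end whose Cont CM points sit visibly apart.

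Tests were run on log2(FPKM + 0.5) over the 13912 genes with a mean of at least 0.5 FPKM, with limma moderated tests and Benjamini-Hochberg adjustment over all of them, and the threshold for a call was 0.05 after adjustment. Fold changes are on this scale, which understates those of low genes. 48 of the 50 members were tested. CTSK was just inside the filter. ACP5, the tartrate-resistant acid phosphatase of osteoclasts and macrophages (mean 0.0997 FPKM, 4 to 18 fragments per library), and CLN3, a lysosomal membrane protein mutated in juvenile Batten disease (0.0219 FPKM, 4 to 14 fragments per library), were outside it and get no test. In CLN3, 30.9% of the exon bases are shared with other annotated genes, and the labels do not say how reads on shared bases were counted.

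Across the 48 tested members the group means were close. In 22 of them the highest and the lowest group mean lay within 1.1-fold of each other. ACP2, lysosomal acid phosphatase, PSAP and the calcium channel gene MCOLN1 were the flattest, each at 1.03-fold. In 7 members the means differed by more than 1.25-fold: CTSD (1.76), NAGLU (1.42), CTSH (1.37), CTSK (1.36), SMPD1 (1.34), CTSO (1.29) and IDUA (1.28). Since RNA was taken from whole cultures, fewer cells of a kind and less RNA per cell cannot be told apart in any of these values.

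The libraries held 32636708 to 39189036 fragments on genes, with 22637 to 23295 genes detected, and mitochondrial genes took 1.85% to 3.31%. The 6 markers listed for mesenchymal breast cancer lines include VIM (345 to 401 FPKM) and the keratin gene KRT18. They summed to 989 to 1032 FPKM over the 3 groups. In Cont CM against No CM, 1 of the 6 was called lower and 0 higher, and the lowest log2 change was -0.37. ESR1, the oestrogen receptor gene, stayed at or below 0.00801 FPKM. The 10 macrophage and other immune markers summed to 5.12 to 6.21 FPKM in No CM, 3.97 to 4.13 in Cont CM and 5.06 to 5.75 in TIS CM. Of these 10, 1 had a mean of at least 1 FPKM and 8 had a mean under 0.1 FPKM. Of the 10, 3 were listed at 0 in every library, TYROBP and CD163 among them, and the defining gene PTPRC did not exceed 0.0277 FPKM. The 6 luminal markers, carried by KRT19, summed to 150.4 to 155 FPKM, 114 to 126 and 133 to 138 in the same order, and the 7 fibroblast and endothelial markers to 2.01 to 2.49, 1.71 to 1.94 and 1.99 to 2.34. In Cont CM against No CM, 1 of 2 tested immune markers (log2 changes -0.46 and -0.43) and 2 of 3 tested luminal markers were called lower. The 1 tested fibroblast and endothelial marker was called lower there (-0.37) and higher in TIS CM against Cont CM (0.38). The immune, luminal, and fibroblast and endothelial sums were lowest in Cont CM, as was CTSD, and their part in the results below was not tested. Library Cont CM 1 was the lowest of the 9 for 22 of 48 members (45.8%), against 21.5% of all tested genes.

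Control-conditioned medium was first compared with plain medium, which asks what medium conditioned by non-senescent cells does. The 4 members called higher were CTSC, GM2A, TFE3 and CTSB, and the 7 called lower were CTSD, NAGLU, SMPD1, CTSO, IDUA, ATP6AP1 and NEU1. These are 8.33% and 14.6% of the 48 tested members, and of all tested genes 7.77% were called higher and 8.56% lower. The members' median log2 change was -0.07, with 18 above 0 and 30 below, beside a median of -0.00 over all tested genes. The groups did not overlap for 7 members that were higher and 17 that were lower, against 16.6% and 16.8% of all tested genes. Over all tested genes the calls numbered 1081 higher and 1191 lower, and 493 and 582 without No CM 3, the lowest of the 9 omissions.

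Among the proteases, CTSD stood at 196, 213 and 207 FPKM in the No CM libraries and at 129, 101 and 121 FPKM in the Cont CM libraries. The lowest No CM library lay well above the highest Cont CM library. The means were 205 ± 8.73 and 117 ± 14.2 FPKM (SD, n = 3), a log2 change of -0.82 ± 0.08 (SE) or 1.76-fold lower, with a limma adjusted p of 0.000379. CTSD alone made up 11.9% to 12.8% of the summed FPKM of all members in No CM, 6.67% to 8.53% in Cont CM and 10.6% to 10.9% in TIS CM.

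CTSD lies on the minus strand at chr11:1752752-1764573, and 52.7% of its exon bases are shared with other genes of the annotation. AC068580.4, a read-through gene on the same strand, was at 0.0318 to 0.151 FPKM in all libraries. AC068580.3, an antisense gene on the opposite strand, moved in the same direction as CTSD in both comparisons that involve Cont CM. It stood at 28.98, 32.3 and 31.3 FPKM in No CM, 18.4, 18.8 and 25.1 in Cont CM and 30.1, 38.6 and 34.2 in TIS CM. It too was called lower in Cont CM (log2 change -0.58, limma adjusted p = 0.015) and higher in TIS CM than in Cont CM (0.72, limma adjusted p = 0.0206). In TIS CM against No CM its log2 change was 0.14, while that of CTSD was -0.19, and neither was called. No label says that the counting used the strand, and reads of both genes on shared bases cannot be told apart.

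CTSO, a little-studied cysteine cathepsin, was at 3.23, 3.10 and 3.18 FPKM in No CM and at 2.40, 2.66 and 2.28 in Cont CM. The groups did not overlap, and the log2 change was -0.32 ± 0.09 (SE, limma adjusted p = 0.0387). CTSC, also called dipeptidyl peptidase I, which activates granule serine proteases, went the other way, from 9.66, 10.3 and 9.80 FPKM to 11.1, 12.7 and 12.03 (0.25 ± 0.05, adjusted p = 0.0152). CTSB, cathepsin B, stood at 67.6, 66.2 and 66.3 FPKM in No CM and 69.9, 76.9 and 77.9 in Cont CM (0.17 ± 0.04, adjusted p = 0.0322). Its 3 No CM libraries were tightly placed and Cont CM 1 was nearer to them than to the other Cont CM libraries. Of the other 10 proteases, none passed the test. CTSH, an aminopeptidase of the cathepsin family, had the widest difference among these, from 5.78 ± 0.417 to 4.49 ± 0.835 FPKM (SD, n = 3), with a log2 change of -0.34 and a limma adjusted p of 0.0768.

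3 of the 14 glycosidases and sulfatases were called lower and none higher, and 11 of the 14 had a change below 0, with a median of -0.10. All 3 act on glycan chains. NAGLU, which removes N-acetylglucosamine in the degradation of heparan sulfate, stood at 11.9, 14.9 and 13.4 FPKM in No CM and 10.7, 8.0 and 9.71 in Cont CM. Its groups were separate but widely spread, with a log2 change of -0.49 ± 0.11 (SE, limma adjusted p = 0.0193). IDUA, alpha-L-iduronidase, acts in the same pathway and fell from 3.09 ± 0.218 to 2.40 ± 0.141 FPKM (SD, n = 3), a change of -0.30 ± 0.07 (adjusted p = 0.0154). NEU1, the sialidase, fell from 21.7 ± 0.689 to 19.3 ± 0.395 FPKM, a change of -0.17 ± 0.05 (adjusted p = 0.0355).

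In the lipid group, SMPD1, which releases ceramide from sphingomyelin, was at 29.1, 28.2 and 29.7 FPKM in No CM and at 20.47, 21.1 and 23.4 in Cont CM. All 3 No CM values lay above all 3 Cont CM values. The log2 change was -0.42 ± 0.05 (SE) or 1.33-fold lower, with a limma adjusted p of 0.00147. GM2A, the activator protein that presents ganglioside GM2 to hexosaminidase, rose from 17.3, 17.6 and 16.7 FPKM to 21.2, 21.1 and 19.4 (0.25 ± 0.05, adjusted p = 0.0086). The other 7 tested genes of this group did not pass, among them PSAP with a change of -0.02 (95% limma interval -0.12 to 0.08).

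No membrane protein was called. CD63 had a change of -0.13 (adjusted p = 0.128), LAMP2 of -0.10 (0.0879), LAMP1 of -0.07 (0.352) and the cholesterol transporter NPC1 of 0.15 (0.138), each p from limma. Of the V-ATPase genes, ATP6AP1, an accessory subunit needed for assembly of the pump, fell from 28.4, 29.4 and 28.6 FPKM to 24.6, 25.6 and 26.1. All Cont CM libraries lay below all No CM libraries, with a change of -0.18 ± 0.04 (SE, limma adjusted p = 0.0118). ATP6V1H, a subunit of the cytosolic sector, had a change of -0.07, and ATP6V0D1, a subunit of the membrane sector, of -0.02, and neither was called. TFE3 stood at 37.2, 38.4 and 35.9 FPKM in No CM and 41.1, 43.5 and 43.8 in Cont CM. Its groups were separate, with a change of 0.20 ± 0.04 (adjusted p = 0.00912). TFEB had a change of 0.04 (adjusted p = 0.779).

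**Figure D2:**
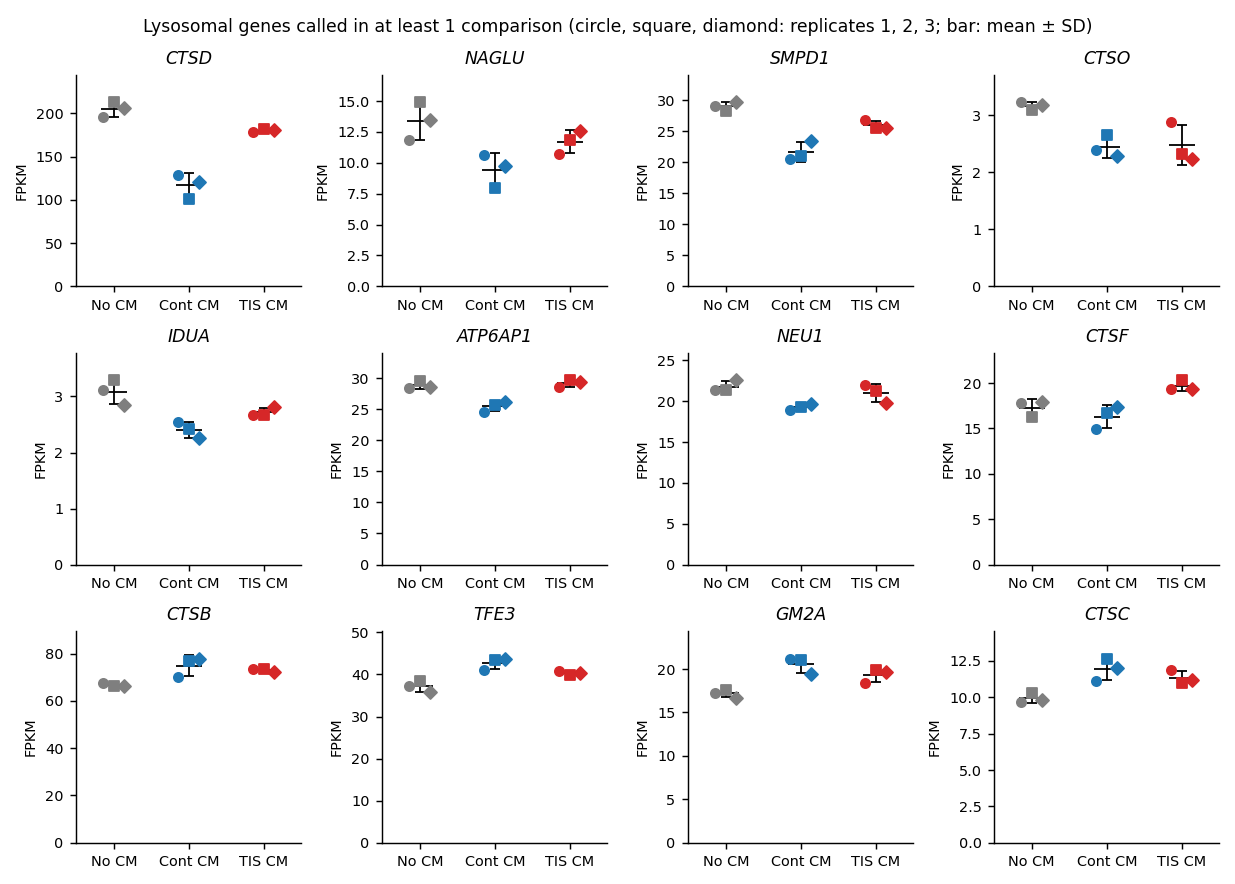
FPKM (linear axis from 0) of the 12 lysosomal genes called in at least 1 comparison, with 1 symbol per library (circle, square and diamond for replicates 1, 2 and 3) and bars for mean ± SD, n = 3. CTSD and SMPD1 show the Cont CM libraries below both other groups, while TFE3 and GM2A show them above No CM.

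CTSD, SMPD1, GM2A and TFE3 were called under each of the 21 alternative analyses of this comparison, and the other 7 were each lost under at least 1 of them. CTSB, NEU1 and CTSO were lost without any 1 of the No CM libraries, with adjusted p up to 0.0999, 0.127 and 0.107. CTSB was also lost without Cont CM 2 or 3 or any TIS CM library (0.0531 to 0.0929), NEU1 without any Cont CM library or TIS CM 2 (0.0586 to 0.0762), and CTSO without Cont CM 1, Cont CM 3 or TIS CM 2 (0.0545 to 0.108). NAGLU was lost without No CM 2 or No CM 3 (0.0632 and 0.0641), IDUA without No CM 2 (0.0545), and CTSC without No CM 1 or No CM 3 (0.0525 and 0.0585). With a trend in GC content and length removed, the adjusted limma p was 0.0994 for ATP6AP1, 0.0995 for IDUA, 0.0886 for NEU1 and 0.0517 for CTSC. The median GC content was 59.67% in the 7 members called lower, 52.65% in the 4 called higher and 52.73% in all tested members.

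The second comparison, TIS CM against Cont CM, sets medium from nocodazole-treated senescent cells against medium from untreated cells. Only the donor cells of TIS CM received nocodazole, so the parts of the drug and of the senescent secretome cannot be told apart. The 4 members called higher were CTSD, CTSF, SMPD1 and ATP6AP1, and none was called lower. They are 8.33% of the tested members, while 2.9% of all tested genes were called higher and 1.57% lower. At an unadjusted limma p under 0.05, 12 members were higher and 1 lower, beside 1775 and 1474 of all 13912 tested genes. With limma-voom on fragments recovered from the FPKM values, 6 members were called higher and 0 lower. The shares of all tested genes were then 4.49% and 3.31%. The members' median log2 change was 0.08, with 35 above 0 and 13 below, beside 0.00 over all tested genes. The groups did not overlap for 18 members that were higher and 2 that were lower, against 15% and 13.6% of all tested genes. Over all tested genes, 404 were called higher and 219 lower, a split that became 284 and 395 with library sums set equal and 310 and 273 after quantile normalization. These totals also depended on single libraries, with 7 higher and 4 lower without TIS CM 1, 20 and 5 without TIS CM 2, 58 and 25 without TIS CM 3, and 67 and 32 without Cont CM 2. The members' counts were 4 and 0 with equal sums and 3 and 0 after quantile normalization.

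CTSD was at 178, 181 and 180.5 FPKM in TIS CM, above the 129, 101 and 121 FPKM of Cont CM. The 3 TIS CM values were close together and the groups did not overlap. Their mean of 180.1 ± 1.54 FPKM (SD, n = 3) gave a log2 change of 0.63 ± 0.08 (SE) or 1.55-fold higher, with a limma adjusted p of 0.00997. CTSF stood at 14.9, 16.7 and 17.3 FPKM in Cont CM and 19.3, 20.3 and 19.3 in TIS CM. The groups were separate, with a change of 0.26 ± 0.06 (adjusted p = 0.0452), and the No CM libraries, at 17.8, 16.2 and 17.9 FPKM, overlapped with Cont CM. The other 12 proteases were not called. CTSH was the one with the widest difference, at 3.53, 4.87 and 5.07 FPKM in Cont CM and 6.53, 6.29 and 5.68 in TIS CM (0.43 ± 0.12, adjusted p = 0.0701).

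SMPD1 was at 26.8, 25.6 and 25.5 FPKM in TIS CM against 20.47, 21.1 and 23.4 in Cont CM. These groups did not overlap, and the log2 change was 0.26 ± 0.05 (SE, limma adjusted p = 0.0317). ATP6AP1 stood at 28.5, 29.6 and 29.3 FPKM against 24.6, 25.6 and 26.1 in Cont CM (0.19 ± 0.04, adjusted p = 0.0253), again without overlap. The other pump genes were not called, with changes of 0.11 for ATP6V0D1 and -0.04 for ATP6V1H.

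None of the 14 glycosidases and sulfatases was called, although 13 of them had a change above 0, with a median of 0.11. NAGLU (0.30, adjusted p = 0.145) and GUSB, the beta-glucuronidase (0.29, 0.138), had the widest differences, with limma intervals from 0.05 to 0.55 and from 0.05 to 0.52. IDS, iduronate sulfatase, was the 1 with a change below 0 (-0.15, adjusted p = 0.153). GLB1 had a change of 0.13 (interval -0.03 to 0.29, adjusted p = 0.304). No membrane protein was called either. CD63 was nearest, at 105, 97.8 and 110.2 FPKM in Cont CM and 119, 119 and 125 in TIS CM, with a change of 0.21 ± 0.05 (limma adjusted p = 0.0505). TFE3 had a change of -0.08 (adjusted p = 0.236) and TFEB of 0.12 (adjusted p = 0.401).

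**Figure D3:**
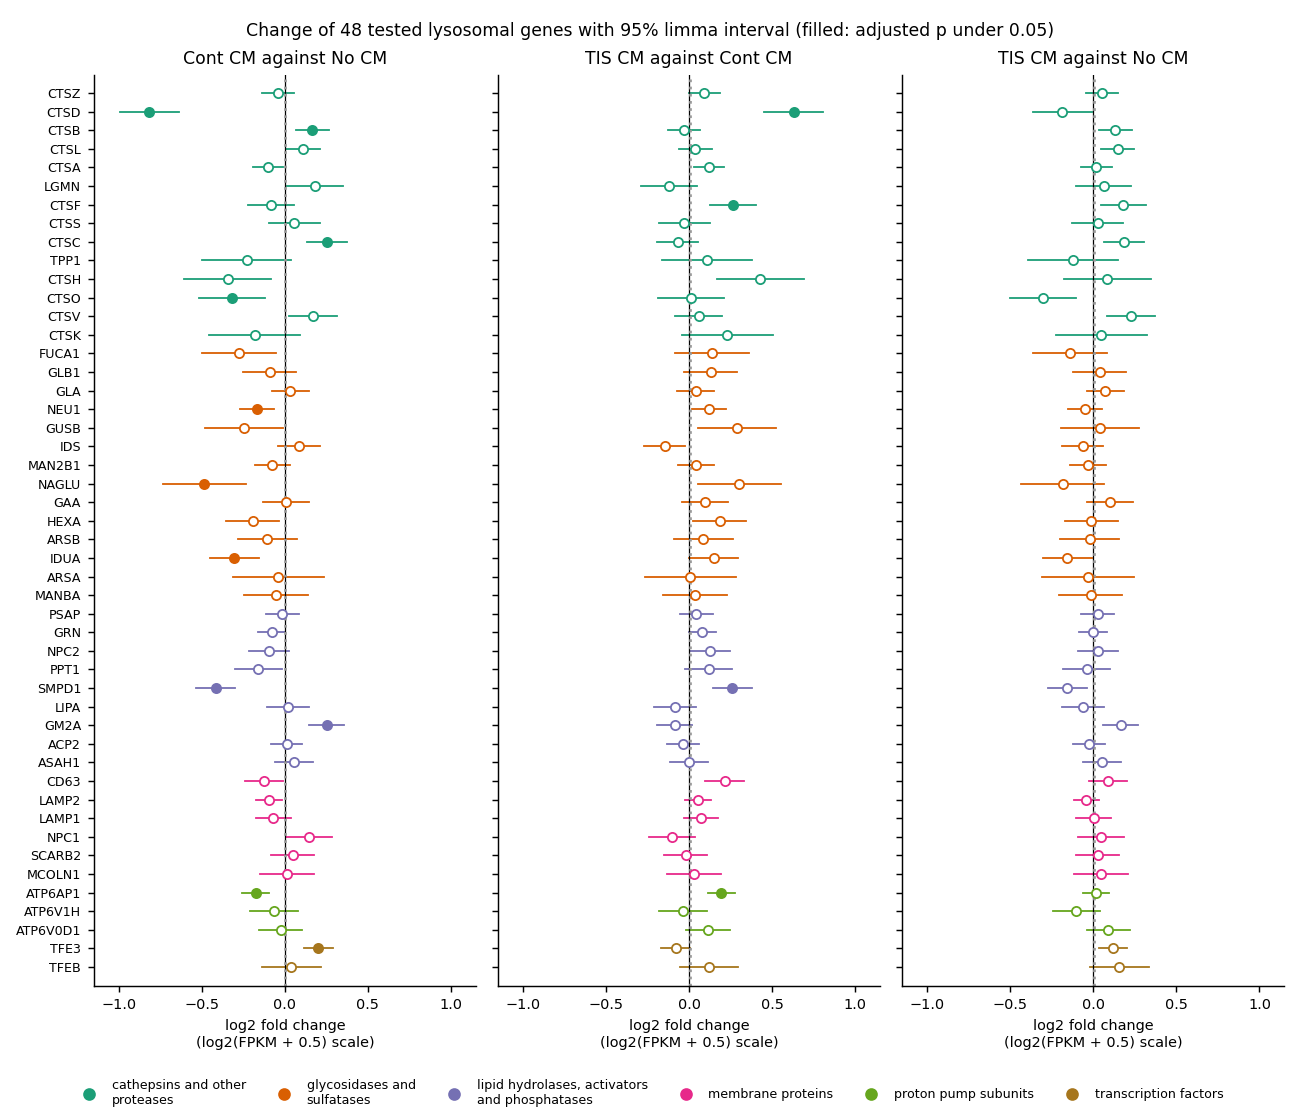
Log2 fold change with its 95% limma interval for each of the 48 tested lysosomal genes in the 3 comparisons, coloured by role; filled points passed the test and the dotted line is the median of all tested genes. Cont CM against No CM has 11 filled points, TIS CM against Cont CM has 4 and TIS CM against No CM has 0.

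These 4 calls depended on single libraries. Without TIS CM 1 or without TIS CM 2 no member was called, and the adjusted limma p of CTSD was then 0.0551 and 0.0577. Without TIS CM 3 or without Cont CM 2, CTSD alone was called. CTSF was also lost without any 1 of the No CM libraries (0.0535 to 0.0651), and SMPD1 without No CM 1 or No CM 3 (0.053 and 0.05). The median GC content of the 4 called genes was 58.75%, against 52.73% over the tested members and 49.22% over all tested genes, and with a trend in GC content and length removed 1 member, CTSD, was still called. The part of composition in the result was not tested.

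**Figure D4:**
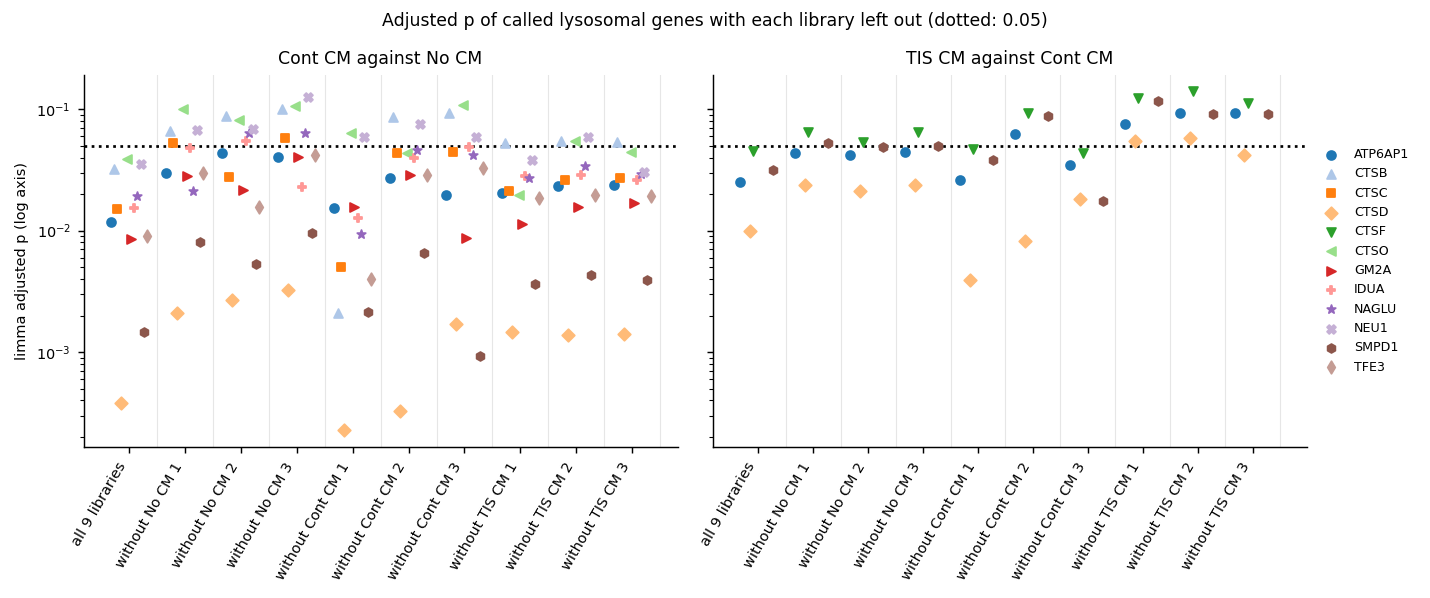
Adjusted limma p (log axis) of each called lysosomal gene with all 9 libraries and with each library left out, for Cont CM against No CM (left) and TIS CM against Cont CM (right); the dotted line is 0.05. CTSD, SMPD1, GM2A and TFE3 stay under the line throughout on the left, and on the right every gene is above it without TIS CM 1 or TIS CM 2.

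Both comparisons use the same Cont CM libraries, so a gene that is low in these tends to fall in the first and rise in the second. CTSD, SMPD1 and ATP6AP1 were called in both, with changes of -0.82 and 0.63, -0.42 and 0.26, and -0.18 and 0.19. CTSC, GM2A and TFE3, called higher in Cont CM, had changes of -0.07, -0.09 and -0.08 in TIS CM against Cont CM, and CTSO had changes of -0.32 and 0.01.

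The fold changes of the third comparison, TIS CM against No CM, use no Cont CM library. Its p-values do, since the spread was estimated over all 9 libraries. No member was called by limma, while 0.403% of all tested genes were called higher and 0.453% lower. Those 56 and 63 genes became 6 to 194 and 3 to 170 with 1 library left out, the most without Cont CM 1. They became 176 and 155 when only the 2 groups compared were fitted. At an unadjusted limma p under 0.05, 7 members were higher and 4 lower, beside 1030 and 859 of all 13912 tested genes. With limma-voom on recovered fragments, 0 members were called in either direction, beside 105 higher and 140 lower of all tested genes. The median change of the members was 0.03, with 29 above 0 and 19 below. The groups did not overlap for 9 members that were higher and 5 that were lower, against 12.7% and 11.6% of all tested genes. CTSD was lower by a log2 change of -0.19 (95% limma interval -0.36 to -0.01, adjusted p = 0.344), with 178, 181 and 180.5 FPKM in TIS CM, all below the 196, 213 and 207 of No CM. CTSO had a change of -0.30 (interval -0.50 to -0.11, adjusted p = 0.172), with 2.89, 2.32 and 2.24 FPKM in TIS CM. The widest difference upward was that of CTSV, cathepsin V, at 1.35 ± 0.0741 FPKM in No CM and 1.67 ± 0.0303 in TIS CM (SD, n = 3), a change of 0.23 (interval 0.08 to 0.37, adjusted p = 0.162). SMPD1 (-0.16), GM2A (0.16), CTSC (0.18) and ATP6AP1 (0.02) did not pass, nor did TFE3 (0.12), TFEB (0.16), ATP6V0D1 (0.09) or ATP6V1H (-0.10).

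The other genes of the lysosome were read from lists of the same pathway. In Cont CM against No CM, 3 of 27 tested other lysosomal enzymes and cofactors were lower and 1 higher. RNASET2, the lysosomal ribonuclease (log2 change -0.39), DPP7, a dipeptidyl peptidase (-0.18), and SUMF1, which activates sulfatases (-0.17), fell, and GALC, galactosylceramidase, rose (0.24). Of 22 other membrane proteins, LAPTM5 (-0.65) and the cationic amino acid exporter PQLC2 (-0.23) fell and the sialic acid exporter SLC17A5 rose (0.19). Of 18 other V-ATPase subunits, ATP6V0C (-0.97) and TCIRG1 (-0.46) fell and ATP6V1D (0.24) and ATP6V0A1 (0.19) rose. ATP6V0C lay at 2.53 FPKM in No CM and 1.097 in Cont CM, and its call was lost without No CM 1, No CM 2, Cont CM 2 or Cont CM 3. ATP6V0A1 stayed called only without TIS CM 1 or TIS CM 2, while TCIRG1 and ATP6V1D stayed called whichever library was left out. TCIRG1, an alternative membrane-sector subunit, went from 17.8 ± 0.218 to 12.8 ± 0.665 FPKM (SD, n = 3).

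Among the 21 genes for mannose 6-phosphate tagging and sorting, SORL1 (-0.69) and CLN6 (-0.25) fell and none rose. Of 19 tested genes of the TFEB family and its nutrient-sensing regulators, MITF, a paralogue of TFEB and TFE3, rose from 4.43 ± 0.263 to 6.25 ± 0.572 FPKM (0.45), as did PPP3CB, a catalytic subunit of calcineurin (0.15). LAMTOR4 (-0.37), LAMTOR1 (-0.21) and LAMTOR2 (-0.18), subunits of the Ragulator complex that anchors mTORC1 to the lysosome, fell. Of 26 autophagy genes, ATG4A (0.30), NBR1 (0.21) and BECN1 (0.18) rose and none fell. Of 8 tested cathepsin inhibitors, CST1 rose from 532 ± 75.1 to 846 ± 65.4 FPKM (0.68) while CST2 (-1.01), CST7 (-0.73) and CST3 (-0.29) fell, as did CSTB (-0.20). CST1 and CST2 are close paralogues, so reads could have been split between them. These lists had 0% to 12.5% of their tested genes called higher and 0% to 50% lower. Of all tested genes, 7.77% were called higher and 8.56% lower. The highest list shares were those of the 8 tested cathepsin inhibitors. Of the 26 genes called in these 7 lists, 16 to 24 were still called with 1 library left out, the fewest without any 1 of the No CM libraries.

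In TIS CM against Cont CM, RNASET2 (0.41) and DPP7 (0.28) rose among the other enzymes, PQLC2 (0.20) among the membrane proteins and TCIRG1 (0.25) among the V-ATPase subunits, where ATP6V1D fell (-0.18). LAMTOR4 (0.30) and LAMTOR2 (0.26) rose and PPP3CB (-0.19) fell among 19 regulators, NBR1 (-0.17) fell among 26 autophagy genes, and CST7 (0.61) and CST3 (0.18) rose among 8 cathepsin inhibitors. No gene for mannose 6-phosphate tagging and sorting was called in this comparison. Of these 11 calls, 0 were left without TIS CM 1 or without TIS CM 2, and 2 (CST7 and DPP7) without TIS CM 3 or without Cont CM 2. Leaving out 1 of the other 5 libraries left 5 to 9. With all libraries, 0% to 25% of the tested genes of a list were called higher and 0% to 5.56% lower. Of all tested genes, 2.9% were called higher and 1.57% lower. In TIS CM against No CM, no gene of these 7 lists was called.

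**Figure D5:**
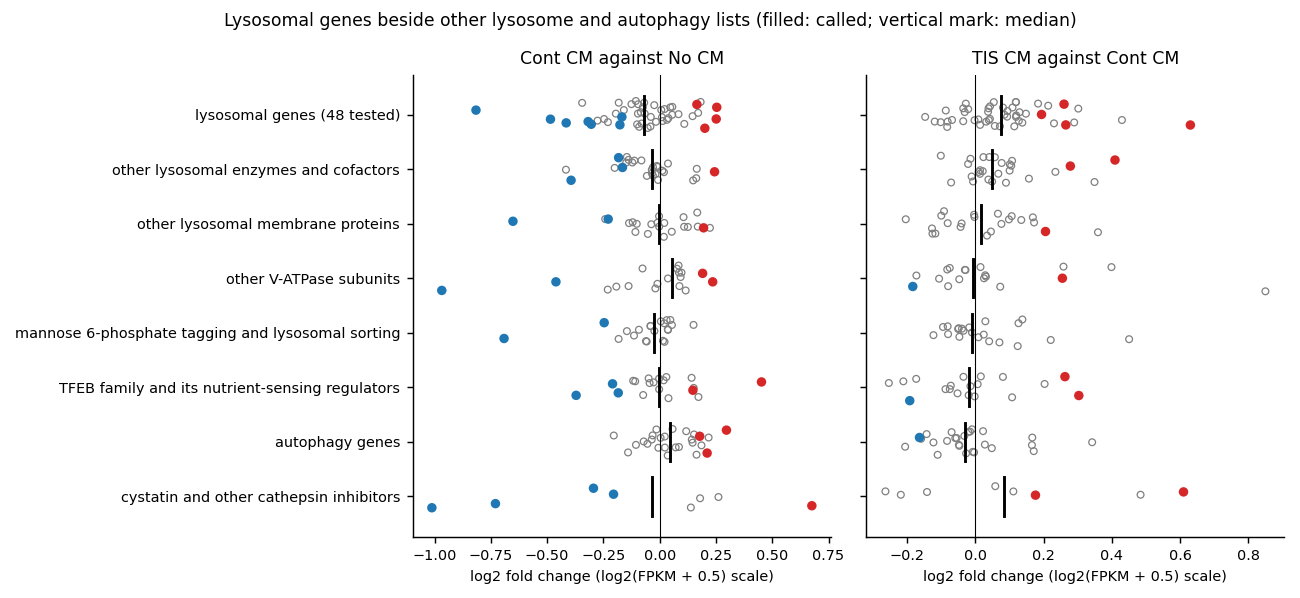
Log2 fold change of each tested gene (1 circle per gene, spread vertically only for visibility) in the lysosomal genes and in 7 other lysosome and autophagy lists, for Cont CM against No CM (left) and TIS CM against Cont CM (right); filled red and blue circles were called higher and lower, and the black mark is the list median. The median of the 48 tested lysosomal genes is -0.07 on the left and 0.08 on the right, and the x axes of the panels differ.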

How the data were processed

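Expression was measured by poly(A) RNA sequencing of 9 libraries in 3 groups. The authors deposited 1 table of FPKM per gene for all libraries. The submitters' processing notes name build hg38, featureCounts 1.5.0-p3, HISAT2 2.0.5, DESeq2 1.20.0 and fastp. Gene IDs matched GENCODE 29.

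The members and all lists were chosen with earlier results of these data known. Genes with a mean of at least 0.5 FPKM (13912) were fitted on log2(FPKM + 0.5) over all 9 libraries with limma 3.58.1 (R 4.3.3), variance trend and Benjamini-Hochberg adjustment over all tested genes. The text names every called member, all V-ATPase members, TFEB and TFE3, and up to 3 called genes per direction from each other list. CSTB and the uncalled members given with values were chosen after their values were seen. FPKM values were whole multiples of 1 fragment (100% within 0.01), from which depth was recovered. On simulated data for TIS CM against Cont CM (13912 genes), the test recovered 38.8% of genes changed 1.25-fold, 64.2% at 1.5-fold and 75.8% at 2-fold, and 4.03% of calls were false. The simulation varied genes independently, gave a gene the same spread in every group and held no library-wide or composition shift. These rates need not hold for the real libraries. Alternatives changed the pseudocount, filter, gene set, scaling, tool, groups fitted, replicate block and composition trend, and left out each library.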

Additional observations from a re-analysis of the deposited data

How the results depend on the processing

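Each comparison was repeated under 21 alternatives, of which 9 left out 1 library. No called member changed direction under any of them. The 4 members called higher in TIS CM against Cont CM became 2 with no filter on low values, 0 when only the 2 groups compared were fitted, 1 with the GC content and length trend removed, and 0 to 5 with 1 library left out. In Cont CM against No CM, the 7 members called lower became 4 with no filter and 3 to 7 with 1 library left out, and the 4 called higher became 2 to 5. In TIS CM against No CM, the 0 members called higher became 1, CTSB, when only those 2 groups were fitted, and 0 to 1 with 1 library left out. The cause was not tested. With replicate number as a block (replicate block), TIS CM against Cont CM gave 1 member called higher, and 0 when the composition trend was removed as well. Deviations from group means had r from -0.187 to 0.084 over 9 pairs of same-numbered libraries, and from -0.129 to 0.201 between differently numbered ones. With so few libraries a group, this cannot show whether same-numbered libraries were cultured or processed together. The members' median ranged from 0.05 to 0.09 in TIS CM against Cont CM, from -0.09 to -0.04 in Cont CM against No CM, and from -0.02 to 0.04 in TIS CM against No CM. At 4 to 18 fragments per library, ACP5 and CLN3 were too shallow to compare.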
